A study of Mus musculus with 9 samples.

Results

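The genes of the NRF2 antioxidant response examined here in callus RNA from fractured mouse femurs were chosen by name. They were Nfe2l2, Keap1, Nqo1, Hmox1, Gclc, Gclm, Srxn1, Txnrd1, Slc7a11 and Osgin1. These were 10 of the 22054 genes measured (0.0453%), each matched 1 row of the table by its symbol, and all 10 passed the filter on low counts in every comparison. Male C57BL/6J mice, 7 weeks old per the labels, had 1 femur cut at midshaft and fixed with a needle in the marrow cavity. From the next day they were injected into the peritoneum once a day for 1 week with 200 μl of H-151 (750 nmol), SR-717 (30 mg/kg) or PBS, and callus RNA was taken on day 7. There were 3 libraries in each of the 3 groups, 9 in all. The labels do not say whether the libraries of a group came from separate mice, so p-values measure the spread between these libraries. Every mouse, the PBS controls included, carried a fracture, so these samples hold no unfractured bone. The drugs reached the whole animal, and the RNA came from bulk tissue.

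NRF2, encoded by Nfe2l2, is a transcription factor that is made continuously and destroyed quickly. KEAP1 binds it and presents it to a CUL3 ubiquitin ligase, and KEAP1 carries reactive cysteines that electrophiles and oxidants modify, which lets newly made NRF2 reach the nucleus. There it pairs with small MAF proteins on antioxidant response elements and raises enzymes that make glutathione, supply NADPH, reduce quinones and break down heme, while BACH1 occupies some of the same elements as a repressor. NRF2 itself is controlled mostly as a protein, so its mRNA is not a measure of its activity, and the mRNAs of its targets are the usual readout. H-151 blocks STING by binding one of its cysteines covalently, whereas SR-717 activates STING in place of the natural ligand cGAMP. The comparisons ask whether a cysteine-reactive compound given for a week, or a STING activator, was accompanied by other levels of these genes.

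Promoter sequence from RefSeq (GRCm38.p6) was found for 8 of the 10 genes, and Hmox1 and Gclc had no entry. Each window ran from 250 bases before a start site to 50 after it and was searched on both strands for 3 motifs. These were the core of the antioxidant response element (ARE, TGACNNNGC), the amino acid response element bound by ATF4 (AARE, TGATGNAA) and the AP-1 site (TGACTCA). The ARE core was present in 4 of the 8 genes (Nfe2l2, Gclm, Srxn1 and Txnrd1) and in 14.0% of 27025 genes with a promoter in the table. The AARE was present in Slc7a11 alone among the 8 and in 4.51% of all genes, and the AP-1 site in 2 of the 8 and in 5.95% of all genes. With these letters no ARE match overlapped an AP-1 match. A form of the ARE core with TGAG in place of TGAC was not searched. The near Srxn1 site as printed below, and the Osgin1 site read on the other strand, have that form, so the AP-1 matches cannot be taken as separate from ARE-like letters. A match is a run of letters and not a measured binding site, and known elements of some of these genes lie farther out than the windows searched. The 3 ARE matches that lie upstream of a start are shown first, with the motif in capitals. Positions are counted from the start site, which is the first base, and there is no position 0. They begin at -240 in Nfe2l2 (minus strand, chr2:75704880-75704913), at -134 in Gclm (plus strand, chr3:122245408-122245446) and at -92 in Txnrd1 (plus strand, chr10:82859099-82859137). The Nfe2l2 stretch lies within an annotated exon of E030042O20Rik. The Txnrd1 stretch lies inside the annotated gene, which begins at 82833951, so its position is counted from an internal start site.
Nfe2l2: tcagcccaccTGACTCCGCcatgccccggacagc
Gclm: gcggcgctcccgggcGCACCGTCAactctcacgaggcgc
Txnrd1: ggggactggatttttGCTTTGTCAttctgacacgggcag
The next sequence is shown because Slc7a11 varied more than any other of the 10 genes. It holds 2 AARE matches that face each other, at -66 and -47 (minus strand, chr3:50443638-50443694), and no ARE match.
Slc7a11: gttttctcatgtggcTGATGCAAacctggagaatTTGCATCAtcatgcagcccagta
The AP-1 matches were at -102 (chr2:152105407-152105443) and -45 (chr2:152105464-152105500) in Srxn1 and at -97 in Osgin1 (chr8:119437035-119437071), all on plus-strand genes. The Osgin1 stretch lies inside the annotated gene, which begins at 119434124, so its position too is counted from an internal start site. Srxn1 also had an ARE match within the transcript, at position 29.
Srxn1 far site: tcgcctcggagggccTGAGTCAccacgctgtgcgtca
Srxn1 near site: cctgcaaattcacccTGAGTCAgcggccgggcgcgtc
Osgin1: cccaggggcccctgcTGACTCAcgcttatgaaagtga

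Of the 9 libraries, 2 stood apart from the rest on the first principal component over all genes. Library totals lay between 16987398 and 23272480 expected counts. On the first principal component of log2 CPM (read counts scaled to library size with TMM factors), which held 49.4% of the variance, SR-717 replicate 1 scored 97.9, PBS replicate 1 scored 37.4, and the other 7 libraries scored from -28.4 to -4.3. The 10 neutrophil markers summed to 31300 TPM (levels that take gene length into account) in SR-717 replicate 1 and to 1340 to 10200 TPM elsewhere. The 10 macrophage markers summed to 11900 TPM there against 4260 to 7710 TPM, and the 10 chondrocyte markers to 260 TPM against 1000 to 7550 TPM. In PBS replicate 1 the erythroid markers (1290 TPM) and chondrocyte markers (1000 TPM) were low. The macrophage markers there (7710 TPM) were above those of the other 7 libraries (4260 to 6860 TPM). The sum of the neutrophil markers (8700 TPM) was within the range of those 7. By gene, Csf3r (86.2 TPM against 8.62 to 59.9 TPM) and Cxcr2 (21.1 TPM against 1.01 to 12.9 TPM) were above those 7. The remaining neutrophil markers were within their range. PBS replicate 3 scored -21.2, yet 230 of 14294 genes there were at least 1.5-fold above the other 8 libraries and 591 at least 1.5-fold below. The counts were 47 and 88 in PBS replicate 1, and 1436 and 550 in SR-717 replicate 1. All 10 neutrophil and 9 of 10 skeletal muscle markers were among the 591. PBS replicate 3 was also the lowest of its group for 7 of the 10 NRF2 genes in CPM and for 31.2% of all genes. The part of cell types in this was not tested. All 10 markers of osteoblasts, of chondrocytes and of osteoclasts were above 0 in every library, which shows detection only. In SR-717 replicate 1 Matn1 had 1 count and Cnmd 15. Col2a1 was at 50.15 CPM there and at 858 to 10570 CPM elsewhere. Keratinocyte markers summed to 10.9 to 27.2 TPM, and 6 of their 10 genes were at 0 in at least 1 library.

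In PBS callus the 10 genes spanned a wide range of levels per length. Hmox1, which encodes the inducible heme oxygenase, led with 193 ± 37.9 TPM (mean ± SD, n = 3). Txnrd1, the cytosolic thioredoxin reductase, followed at 80.6 ± 7.94 TPM. Srxn1 (45.9 ± 2.72 TPM), Nfe2l2 (45.85 ± 23.6 TPM), Keap1 (39.05 ± 6.33 TPM) and Gclm (33.0 ± 7.74 TPM) came next, and the libraries of each overlapped those of its neighbour in this order. Osgin1 (9.64 ± 4.99 TPM), Nqo1 (7.99 ± 1.72 TPM), Gclc (7.30 ± 2.07 TPM) and Slc7a11 (2.32 ± 3.36 TPM) were lowest, again with overlapping neighbours. In PBS, Hmox1 lay above Txnrd1, Txnrd1 above Srxn1 and Gclm above Osgin1 without overlap. Nfe2l2 in PBS replicate 1 (73.04 TPM) was nevertheless above Txnrd1 in PBS replicate 3 (72.1 TPM). Gclm and Gclc encode the modifier and the catalytic subunit of glutamate-cysteine ligase, the enzyme that makes the first bond of glutathione. Over the 9 libraries the modifier was 4.74 times the catalytic subunit in TPM, from 3.74 in H-151 replicate 1 to 8.4 in SR-717 replicate 1.

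The transcription factor and its sensor differed in how much they varied. Nfe2l2 (chromosome 2, 75675513 to 75704641, minus strand, GRCm38) was at 53.1, 54.2 and 57.9 CPM in H-151 replicates 1, 2 and 3, at 94.8, 40.8 and 44.1 CPM in PBS, and at 216, 59.4 and 46.1 CPM in SR-717. The first PBS and the first SR-717 library were thus the highest of the 9, and the H-151 libraries lay between the low and the high PBS values. Keap1 (chromosome 9, 21229730 to 21239361, minus strand) was at 61.3, 69.8 and 59.1 CPM in H-151, at 61.4, 73.0 and 60.6 CPM in PBS, and at 56.25, 60.1 and 68.3 CPM in SR-717. Its highest library was 1.30 times its lowest, the smallest such ratio among the 10 genes, and the 3 groups overlapped. Keap1 shares exonic bases with Gm16754 on the other strand, and since it is not stated whether counting used the strand, its counts are uncertain to that extent.

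The genes that bring in cystine and make glutathione ranged from the most variable of the 10 to one of the steadier. Slc7a11 (chromosome 3, 49892526 to 50443614, minus strand) encodes xCT, the exchanger that imports cystine for glutathione synthesis and is also a target of ATF4. It was at 10.2, 3.85 and 1.945 CPM in H-151, at 30.0, 2.03 and 1.74 CPM in PBS, and at 183, 3.80 and 3.85 CPM in SR-717, which were 208, 78 and 35, then 525, 48 and 31, then 3539, 81 and 66 counts. Replicate 1 was the highest library of each group, and the highest library of the 9 was 105 times the lowest. Without SR-717 replicate 1 and PBS replicate 1 that ratio was 5.86. Gclc (chromosome 9, 77754535 to 77794485, plus strand) was at 16.8, 17.5 and 10.7 CPM in H-151, at 11.65, 16.6 and 11.1 CPM in PBS, and at 15.55, 16.4 and 12.3 CPM in SR-717. No library stood out for this subunit, and its highest value was 1.63 times its lowest. Gclm (chromosome 3, 122245557 to 122270732, plus strand) was at 31.5, 38.4 and 23.85 CPM in H-151, at 28.4, 31.0 and 26.6 CPM in PBS, and at 72.3, 29.3 and 21.0 CPM in SR-717. SR-717 replicate 1 was high and the other 8 libraries overlapped across groups. Gclm shares exonic bases with Gm17494 on the other strand and with Gm6061 on its own strand, so its counts are uncertain.

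The thiol repair enzymes were steady outside SR-717 replicate 1. Txnrd1 (chromosome 10, 82833951 to 82897712, plus strand), the selenoenzyme that keeps thioredoxin reduced, was at 124, 126 and 132 CPM in H-151, at 149.7, 132 and 131 CPM in PBS, and at 225, 131 and 140 CPM in SR-717. Without the 2 libraries that stood apart, its highest library was 1.13 times its lowest. Srxn1 (chromosome 2, 152105516 to 152111376, plus strand), the sulfiredoxin that restores overoxidized peroxiredoxins, was at 68.4, 74.95 and 64.5 CPM in H-151, at 68.7, 68.2 and 67.8 CPM in PBS, and at 93.85, 54.5 and 70.5 CPM in SR-717. The PBS libraries of Srxn1 differed least of all, with a coefficient of variation of 0.672%, and both treated groups reached above and below them.

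Quinone and heme enzymes differed in level and in pattern. Nqo1 (chromosome 8, 107388225 to 107403206, minus strand), the quinone reductase most often used as an NRF2 readout, was at 7.75, 9.12 and 5.00 CPM in H-151, at 5.20, 7.65 and 6.80 CPM in PBS, and at 7.75, 5.49 and 6.365 CPM in SR-717. These were 90 to 185 counts a library, and the lowest and the highest of the 9 both belonged to H-151. Hmox1 (chromosome 8, 75093621 to 75100589, plus strand) was at 162, 171 and 87.8 CPM in H-151, at 195.0, 135 and 151.5 CPM in PBS, and at 510.3, 123 and 121.5 CPM in SR-717. SR-717 replicate 1 was highest and H-151 replicate 3 lowest, and the other 2 SR-717 libraries lay below all 3 PBS libraries. Osgin1 (chromosome 8, 119434124 to 119446256, plus strand), an oxidative stress-induced growth inhibitor, was at 11.3, 8.28 and 5.11 CPM in H-151, at 14.85, 10.3 and 4.72 CPM in PBS, and at 48.6, 9.62 and 8.23 CPM in SR-717. Apart from SR-717 replicate 1, the groups overlapped. H-151 replicate 3 was the lowest of its group for 8 of the 10 genes in CPM (all but Nfe2l2 and Txnrd1) and for 36.2% of all genes. Its neutrophil markers summed to 2630 TPM against 10200 and 8960 TPM in the other H-151 libraries, its erythroid markers to 9950 TPM against 25000 and 41100 TPM, and its chondrocyte markers to 2470 TPM against 5780 and 4930 TPM. The part of these cell types in the low values was not tested. In bulk RNA a smaller number of cells that express a gene and less RNA per cell cannot be told apart, for these values and for those that follow.

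**Figure D1:**
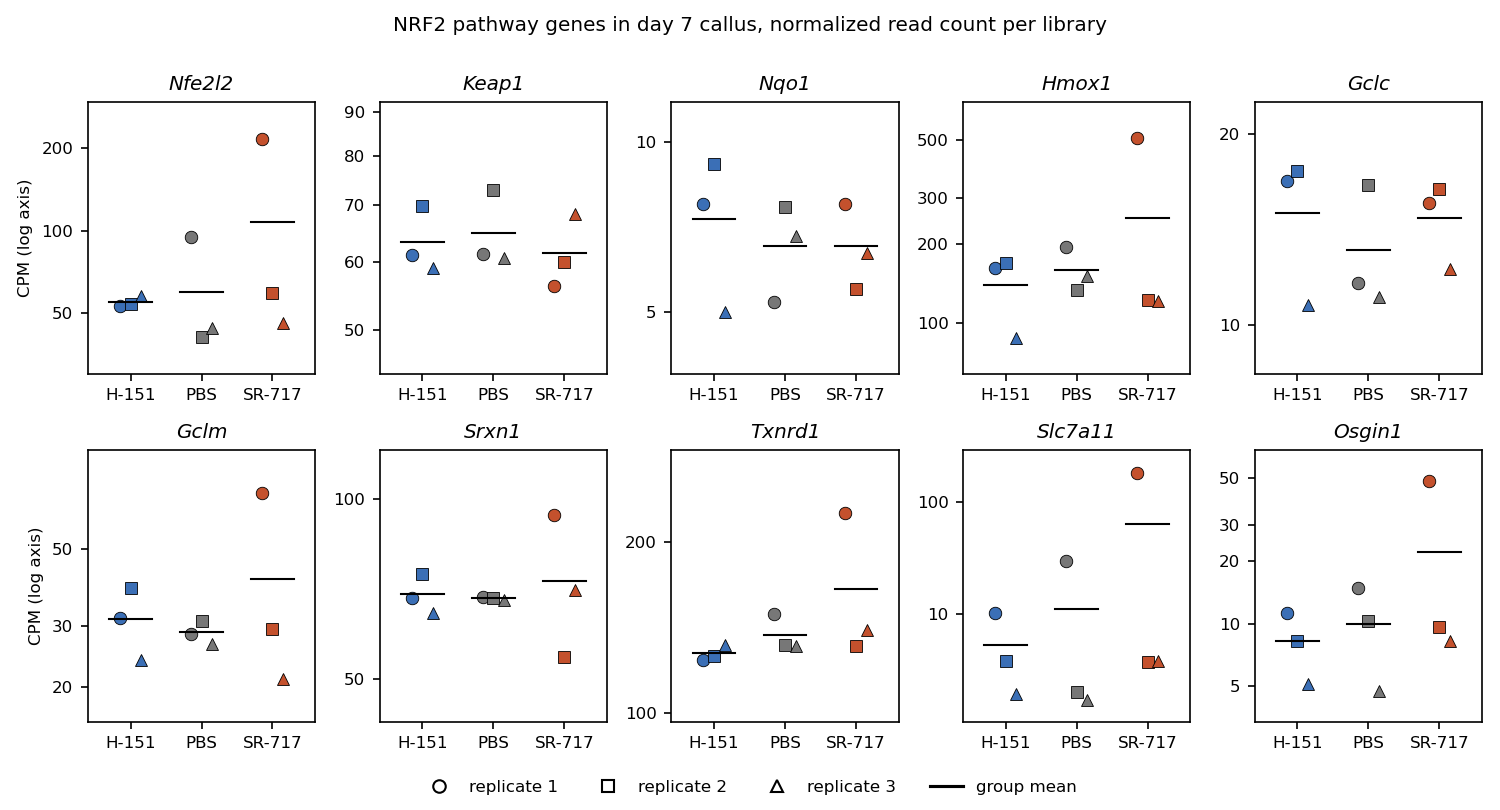
Normalized read counts (CPM, log axis) of the 10 genes in the 9 libraries, by group on the x axis, with a marker shape per replicate number and a line at each group mean. SR-717 replicate 1 lies far above the other 8 libraries for Slc7a11 (183 CPM), Osgin1 (48.6 CPM), Nfe2l2 (216 CPM) and Hmox1 (510.3 CPM), and the 3 groups overlap for every gene.

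A single library, SR-717 replicate 1, held the largest differences of the pathway. It exceeded the highest of the other 8 libraries at least 1.5-fold for 6 of the 10 genes, against 10% of all 14294 genes passing the filter (1436 genes). The 6 were Nfe2l2, Hmox1, Gclm, Txnrd1, Slc7a11 and Osgin1. Relative to the median of the other 8 libraries in CPM, Slc7a11 was 47.8-fold higher, Osgin1 5.43-fold, Nfe2l2 4.03-fold, Hmox1 3.57-fold, Gclm 2.51-fold and Txnrd1 1.71-fold. The other 4 genes stayed near that median, with ratios of 1.37 for Srxn1, 1.18 for Nqo1, 1.09 for Gclc and 0.917 for Keap1. Of the subunits of glutamate-cysteine ligase, Gclm was thus among the high genes and Gclc was not, and neither Nqo1 nor Srxn1 was. No gene of the 10 was 1.5-fold beyond the other 8 in any of the remaining libraries, where 0.161% to 5.74% of all genes were above or below to that extent. In PBS replicate 1, Slc7a11 was 15.9 times the mean of the other 2 PBS libraries, Nfe2l2 2.23 times, Osgin1 1.98 times and Hmox1 1.36 times, whereas Gclm (0.986) and Keap1 (0.919) were close to that mean. The macrophage markers summed to 7710 TPM in that library against 5690 and 4260 TPM in the other PBS libraries, with Cd14 at 11.5 times their mean in CPM, and their part in these values was not tested. All 10 neutrophil markers and 5 of the 10 macrophage markers were also at least 1.5-fold above the other 8 libraries in SR-717 replicate 1, and 8 of 10 chondrocyte and 4 of 10 osteoblast markers were at least 1.5-fold below them. The part of cell composition in the high values of this library was not tested.

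**Figure D2:**
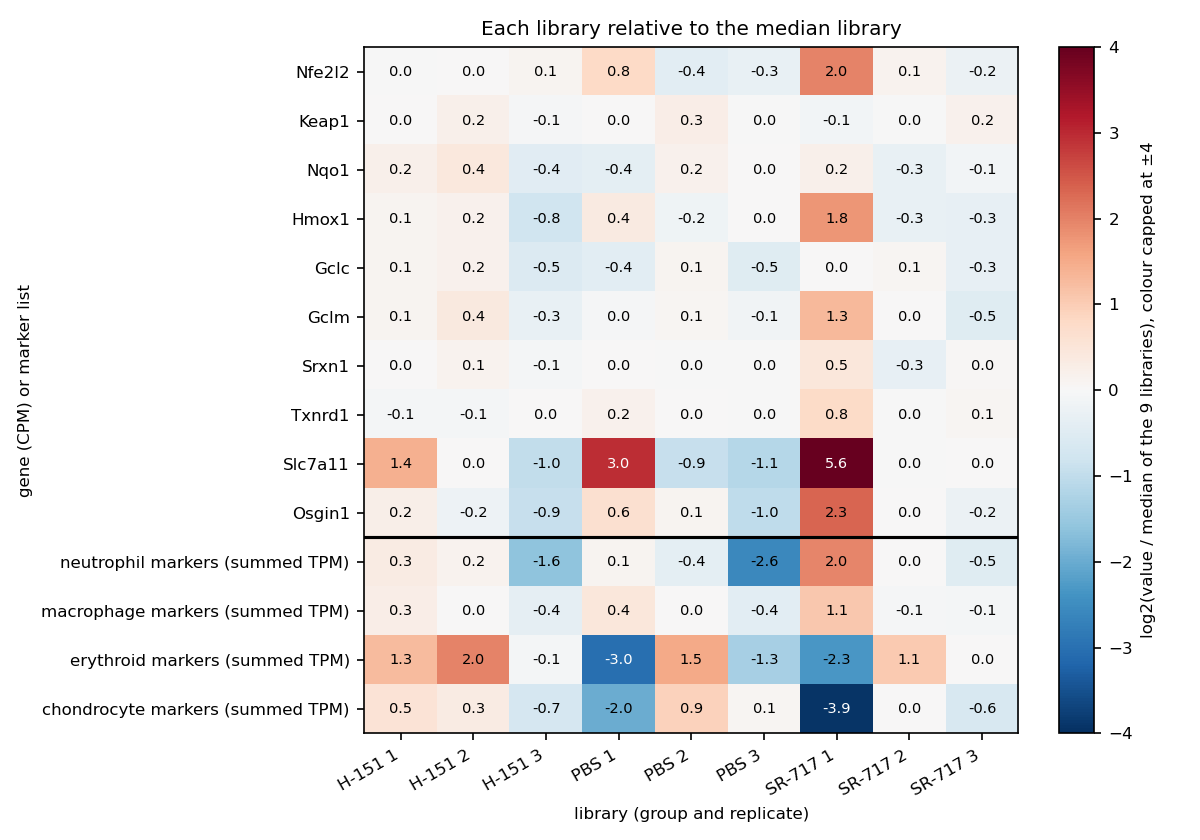
Each of the 9 libraries (columns) relative to the median library on a log2 scale, for the 10 genes in CPM and, under the line, for 4 lists of cell type markers in summed TPM. Red is above and blue below the median, and the SR-717 replicate 1 column is the reddest, with Slc7a11, Osgin1, Nfe2l2, Hmox1 and Gclm well above the median together with the neutrophil and macrophage markers.

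For the related pathways the same count in that library is read against the 10% of all genes, and no difference between lists was tested. For enzymes that supply NADPH, 6 of 11 genes (G6pdx, Pgd, Taldo1, Tkt, Rpe and Nadk) were at least 1.5-fold above the other 8 libraries. Among these, G6pdx, the entry enzyme of the pentose phosphate pathway, was at 216 CPM in SR-717 replicate 1 and at 47.9 to 85.3 CPM elsewhere. For the thioredoxin, peroxiredoxin and peroxide list the count was 5 of 19 (Prdx5, Prdx6, Sod2, Msra and Msrb1), and for glutathione synthesis and use 6 of 26 (Gsr, Ggt1, Mgst1, Mgst2, Glrx and Abcc1). Gsr, which reduces oxidized glutathione, was at 418 CPM against 102 to 171 CPM. The remaining lists were near or below the background. Of 14 regulators Maff and Bach1 were above (14.3%), and of 14 heme and iron genes Fth1 and Slc11a1 (14.3%). Fth1, the ferritin heavy chain, was at 10170 CPM in SR-717 replicate 1, at 4090 CPM in PBS replicate 1 and at 1291 to 2016 CPM in the other 7. For carbonyl and quinone detoxification the count was 2 of 14 (Ptgr1 and Esd), and for ATF4 targets 1 of 16 (Sesn2). None of the 15 heat shock genes and none of the 5 metallothionein and zinc genes was above, by this 1.5-fold rule. At least 1.5-fold below the lowest of the other 8 libraries were Gpx3 and Gsta4 of the glutathione list, Ephx1 of the carbonyl list, Nupr1 of the ATF4 list and Mt3 of the metallothionein list, against 3.85% of all genes. G6pdx, Gsr and Fth1 were chosen for their values after these were seen.

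**Figure D3:**
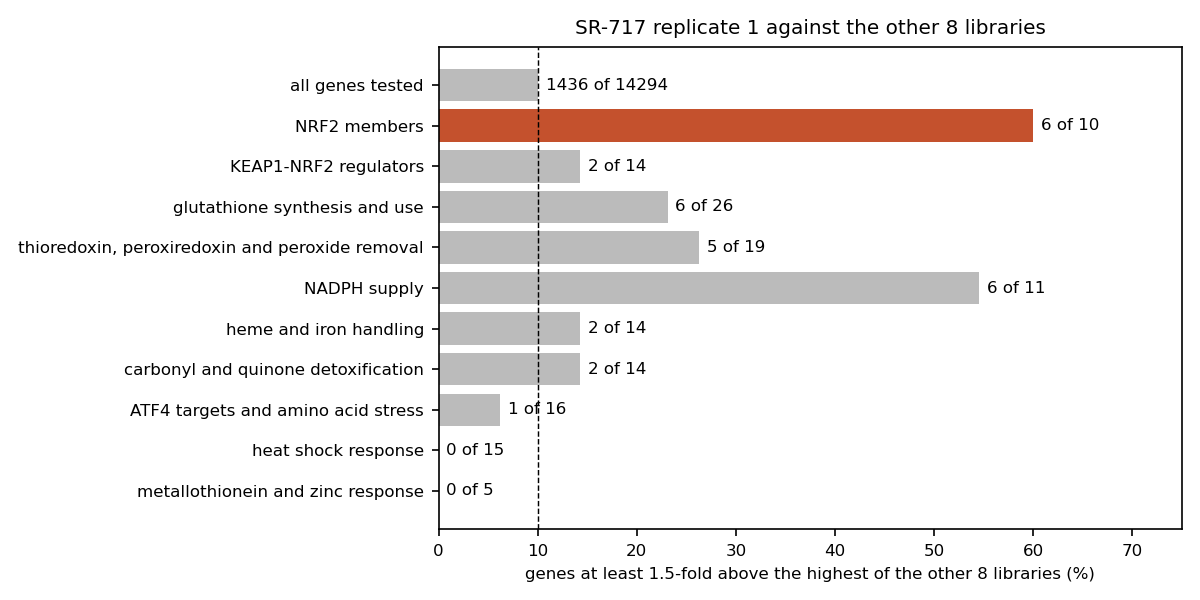
Share of each gene list (percent, x axis) that was at least 1.5-fold above the highest of the other 8 libraries in SR-717 replicate 1, with the counts beside the bars and a dashed line at the share of all genes (10%). The 10 NRF2 genes (6 of 10) and the NADPH supply list (6 of 11) have the longest bars, and the heat shock and metallothionein lists have none.

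H-151 was compared with PBS first, since it is the cysteine-reactive compound. None of the 10 genes passed an unadjusted p of 0.05 with a 1.5-fold change in edgeR's quasi-likelihood test, and none had an unadjusted p under 0.05, while 0.426% of 14085 genes tested passed (60 genes, 37 higher and 23 lower). At an adjusted p under 0.05 the count was 0 genes of the 14085 in edgeR and 0 in DESeq2, with 91 genes (0.646%) at an unadjusted p under 0.05 in edgeR. DESeq2 also called none of the 10 at the unadjusted thresholds. The fold changes of 4 genes were above 1 and those of 6 below, with a median log2 difference of -0.07 against -0.02 over all genes tested, and the groups overlapped for all 10. Over all genes, 1.56% lay fully above PBS with H-151 and 2.31% fully below. Keap1 differed by -0.04 on the log2 scale (SE 0.14) and Srxn1 by 0.02 (SE 0.12). Nqo1 differed by 0.15 (SE 0.29), Gclc by 0.20 (SE 0.26), Gclm by 0.13 (SE 0.20) and Txnrd1 by -0.11 (SE 0.12). These estimates were smaller than or close to their standard errors. Nfe2l2 differed by -0.12 (SE 0.33), Hmox1 by -0.19 (SE 0.28), Osgin1 by -0.27 (SE 0.46) and Slc7a11 by -1.07 (SE 1.17). The edgeR p-values of the 10 ran from 0.392 to 0.852, with every adjusted p at 1.

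How large a rise could have gone unseen follows from the 95% intervals. Srxn1 lay between 0.838-fold and 1.23-fold of PBS, Txnrd1 between 0.758-fold and 1.14-fold, Keap1 between 0.778-fold and 1.22-fold and Hmox1 between 0.551-fold and 1.39-fold. For these 4 genes the upper bound was under 1.5-fold, and for 9 of the 10 it was under 2-fold. Nqo1 reached from 0.693-fold to 1.79-fold and Osgin1 from 0.387-fold to 1.77-fold. Slc7a11 was the exception, with an interval from 0.0695-fold to 3.27-fold. Its estimate rested on single libraries and was 1.51 on the log2 scale without PBS replicate 1 and -1.95 without H-151 replicate 1, neither passing the thresholds. Likewise Nfe2l2 differed by 0.39 without PBS replicate 1, and Osgin1 by 0.14. Under pairing by replicate number 262 genes (1.86%) passed the unadjusted thresholds but again 0 of the 10, and Slc7a11 then differed by -0.25 (SE 0.51).

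**Figure D4:**
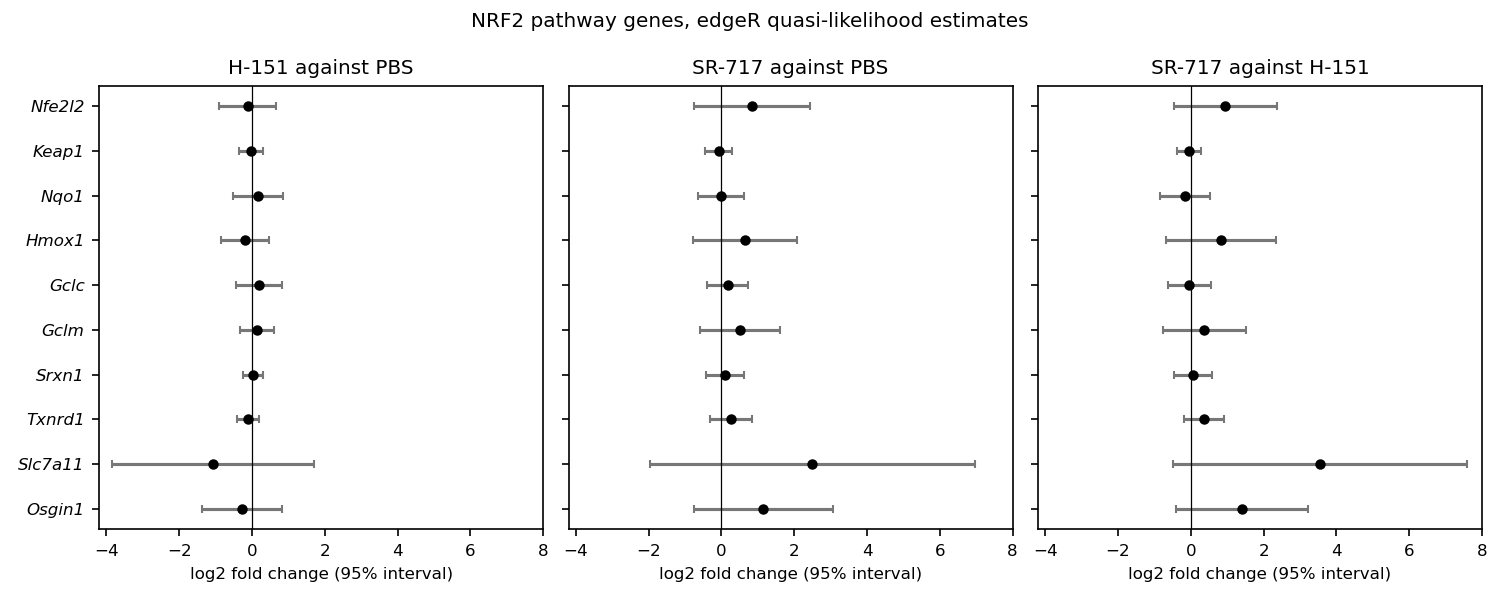
Log2 fold changes of the 10 genes (points) with 95% intervals (bars) from edgeR for H-151 against PBS, SR-717 against PBS and SR-717 against H-151. All 30 intervals include 0. In H-151 against PBS the widest is that of Slc7a11 (-3.85 to 1.71), followed by Osgin1 (-1.37 to 0.83), and in both SR-717 comparisons those of Slc7a11, Osgin1, Nfe2l2 and Hmox1 are wide.

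SR-717 against PBS gave positive but uncertain differences. Again 0 of the 10 genes passed the unadjusted thresholds, and 0 had an unadjusted p under 0.05, against 0.519% of 14070 genes past the thresholds (73 genes, 38 higher and 35 lower). No gene of the 14070 had an adjusted p under 0.05 in edgeR or in DESeq2, and 97 (0.689%) had an unadjusted p under 0.05 in edgeR. The log2 difference was above 0 for 8 of the 10, with a median of 0.39 against 0.01 over all genes tested. The groups overlapped for all 10, while 1.49% of all genes lay fully above PBS with SR-717 and 2.26% fully below. Slc7a11 averaged 63.5 ± 103 CPM in SR-717 and 11.25 ± 16.2 CPM in PBS (mean ± SD, n = 3), a log2 difference of 2.50 (SE 1.85). Osgin1 averaged 22.15 ± 22.9 CPM against 9.95 ± 5.07 CPM (1.15, SE 0.79). Nfe2l2 averaged 107 ± 94.5 CPM against 59.9 ± 30.3 CPM (0.84, SE 0.66). In each of these genes the SD of the SR-717 group was close to or above its mean, and SR-717 replicate 1 was its highest library. Hmox1 differed by 0.65 (SE 0.60), Gclm by 0.51 (SE 0.45) and Txnrd1 by 0.27 (SE 0.24). Without SR-717 replicate 1 the difference was -1.57 for Slc7a11, -0.16 for Osgin1, -0.19 for Nfe2l2, -0.39 for Hmox1, -0.18 for Gclm and -0.02 for Txnrd1. Gclc (0.17, SE 0.24), Srxn1 (0.10, SE 0.22), Nqo1 (0.00, SE 0.26) and Keap1 (-0.08, SE 0.16) were near 0 with all libraries. Both SR-717 comparisons use the same SR-717 libraries, and both PBS comparisons the same PBS libraries, so their values are not independent.

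Slc7a11 was the single gene of the 10 whose call against PBS depended on how libraries were matched. SR-717 exceeded PBS by 2.61 on the log2 scale between the replicates numbered 1, by 0.906 between those numbered 2 and by 1.15 between those numbered 3, so the direction was shared by all 3 pairs. With the replicate number as a block, Slc7a11 was higher by 1.63 (SE 0.40, adjusted p = 0.999 in edgeR), and it was the 1 gene of the 10 that passed the unadjusted thresholds, against 443 genes (3.15%) in that fit. Without SR-717 replicate 1 and PBS replicate 1 together, an alternative chosen after seeing the data, it was higher by 1.035 (SE 0.31, adjusted p = 1 in edgeR), again alone of the 10, against 118 genes (0.833%). In that fit the 2 SR-717 libraries were at 3.80 and 3.85 CPM and the 2 PBS libraries at 2.03 and 1.74 CPM, from 31 to 81 counts each. PBS replicate 3 remained in that fit. Nfe2l2 was also higher in all 3 pairs, by 1.19, 0.541 and 0.0644, and did not pass the thresholds with the block. The share of all genes higher in all 3 pairs was not counted, so a shared direction cannot be read as particular to these genes. The labels do not call same-numbered libraries pairs, and 3 of these 6 libraries correlated best with their own number. H-151 replicate 2 held 3.85 CPM of Slc7a11, a level like those 2 SR-717 libraries.

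SR-717 against H-151 gave the largest differences for Slc7a11, Osgin1, Nfe2l2, Hmox1 and Txnrd1, with an adjusted p of 0.996 or 0.997 for each of the 10 in edgeR. None passed the unadjusted thresholds and none had an unadjusted p under 0.05, against 0.756% of 14151 genes past the thresholds (107 genes, 52 higher and 55 lower). At an adjusted p under 0.05 there were 0 genes in edgeR, with 146 (1.03%) at an unadjusted p under 0.05, and 1 gene in DESeq2 (Myh8, a skeletal muscle myosin). Slc7a11 differed by 3.55 on the log2 scale (SE 1.67), Osgin1 by 1.415 (SE 0.75), Nfe2l2 by 0.95 (SE 0.58) and Txnrd1 by 0.37 (SE 0.23). These 4 again had SR-717 replicate 1 as their highest library. Hmox1 differed by 0.83 (SE 0.63) and Gclm by 0.38 (SE 0.47). The remaining 4 lay between -0.17 (Nqo1) and 0.06 (Srxn1), and the median of the 10 was 0.37 against 0.02 over all genes. The groups overlapped for all 10, while 2.67% of all genes lay fully above H-151 with SR-717 and 2.51% fully below. Without SR-717 replicate 1 Slc7a11 differed by -0.49, Gclm by -0.32, Hmox1 by -0.21, Nfe2l2 by -0.07, Txnrd1 by 0.08 and Osgin1 by 0.11. Without SR-717 replicate 3, which leaves that library as 1 of 2, 3 genes passed the unadjusted thresholds against 4.6% of all genes. They were Slc7a11 (4.11), Osgin1 (1.81) and Nfe2l2 (1.31), all at an adjusted p of 0.694 in edgeR. Without SR-717 replicate 2, Slc7a11 was the 1 gene of the 10 to pass, against 2.69% of all genes (4.11, adjusted p = 0.983 in edgeR).

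The wider pathway was read from 9 lists of related genes. In H-151 against PBS, 1 of the 132 listed genes tested (0.758%) passed the unadjusted thresholds, against 0.426% of all genes, a single gene and so near the background. The gene lay in the heme and iron list (1 of 14 higher, 0 lower), and the other 8 lists had 0 in either direction. It was Cd163, the macrophage receptor for haptoglobin-hemoglobin, at 2.55, 3.55 and 1.61 CPM in H-151, 0.457, 1.78 and 0.731 CPM in PBS, and 0.878, 1.97 and 2.22 CPM in SR-717. These were low counts, at 52, 72 and 29, then 8, 42 and 13, then 17, 42 and 38. The groups overlapped, and Cd163 was higher by 1.35 on the log2 scale with H-151 (SE 0.56, adjusted p = 1 in edgeR). The call was lost without H-151 replicate 1, H-151 replicate 2, PBS replicate 1 or PBS replicate 3, where the difference ranged from 1.025 to 1.37. The 10 macrophage markers had a median log2 difference of -0.20 in that comparison, and the 10 erythroid markers one of 1.19. In PBS replicate 1, where Cd163 was lowest, erythroid markers were also lowest, and their part in the Cd163 difference was not tested.

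In both SR-717 comparisons the one listed gene past the unadjusted thresholds was Spic, also of the heme and iron list. That was 1 of 132 against PBS (0.758%, with 0.519% of all genes) and 1 of 131 against H-151 (0.763%, with 0.756% of all genes), again about the background. Spic encodes the transcription factor of iron-recycling macrophages and is repressed by BACH1. It was at 5.48, 3.99 and 3.62 CPM in SR-717, at 3.14, 2.20 and 2.58 CPM in PBS and at 1.91, 2.42 and 2.28 CPM in H-151. These were 39 to 106 counts a library. The SR-717 libraries were above all others, while 1.49% of all genes lay fully above PBS with SR-717 and 2.67% fully above H-151. Against H-151 Spic was higher by 0.97 (SE 0.26, adjusted p = 0.996 in edgeR), and it passed the unadjusted thresholds in all 13 alternatives, with values from 0.66 to 1.09. Against PBS it was higher by 0.72 (SE 0.30, adjusted p = 1 in edgeR), and 8 of 14 alternatives lost the call. The 10 macrophage markers had a median log2 difference of 0.54 against H-151 (10 of 10 above 0) and of 0.36 against PBS (9 of 10), and their part in the Spic differences was not tested. Bach1 itself was at 122 CPM in SR-717 replicate 1 and at 26.3 to 55.3 CPM elsewhere.

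The most abundant gene of each list gave a view of the pathway where counting error is small. Sqstm1, which encodes the KEAP1-binding autophagy receptor p62, differed by -0.03 (SE 0.15) with H-151 and by 0.20 (SE 0.21) with SR-717 on the log2 scale, both against PBS. Prdx1, the cytosolic peroxiredoxin, differed by 0.02 (SE 0.18) and 0.21 (SE 0.21), and Taldo1, transaldolase of the pentose phosphate pathway, by 0.03 (SE 0.20) and 0.35 (SE 0.30). Ftl1, the ferritin light chain, differed by -0.22 (SE 0.20) and 0.14 (SE 0.35), and Gpx3, the secreted glutathione peroxidase, by 0.01 (SE 0.21) and -0.34 (SE 0.30). None of these 5 passed the thresholds. Esd, an esterase that splits S-formylglutathione, differed by -0.05 and 0.47, Atf4 by -0.06 and -0.20, and the constitutive chaperone Hspa8 by -0.32 and -0.26, without passing either. Mt1, the metal-binding metallothionein, was at 118, 112 and 128 CPM in H-151, at 195, 153 and 135 CPM in PBS and at 193, 135 and 152 CPM in SR-717. All 3 H-151 libraries were below all 3 PBS libraries, as for 2.31% of all genes, with a log2 difference of -0.43 (SE 0.17, adjusted p = 1 in edgeR) that passed an unadjusted 0.05 but was under 1.5-fold and so not a call.

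List medians in H-151 against PBS lay close to the all-gene median of -0.02 for most lists. They were 0.07 for glutathione synthesis and use (16 of 26 above 0), 0.03 for the thioredoxin list (12 of 19) and 0.03 for NADPH supply (7 of 11). The lists farthest from it were heat shock (median -0.27, 2 of 15 above 0) and metallothionein and zinc (-0.26, 1 of 5), followed by ATF4 targets (-0.11, 4 of 16), with 0 genes past the thresholds in each. Hspa1a, the inducible heat shock protein, was picked once its values were known and was at 5.59, 7.64 and 4.50 CPM in H-151, at 29.4, 21.4 and 3.48 CPM in PBS, and at 32.9, 4.51 and 6.19 CPM in SR-717. PBS replicates 1 and 2 and SR-717 replicate 1 were its high libraries, and H-151 lay within the range of PBS. Hspa1a and Hspa1b are near-identical copies that share reads, so the split between them is uncertain. In SR-717 against PBS the NADPH list had a median of 0.35 (8 of 11 above 0), glutathione 0.14 (19 of 26), and heat shock -0.19 (4 of 15), against 0.01 over all genes.

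**Figure D5:**
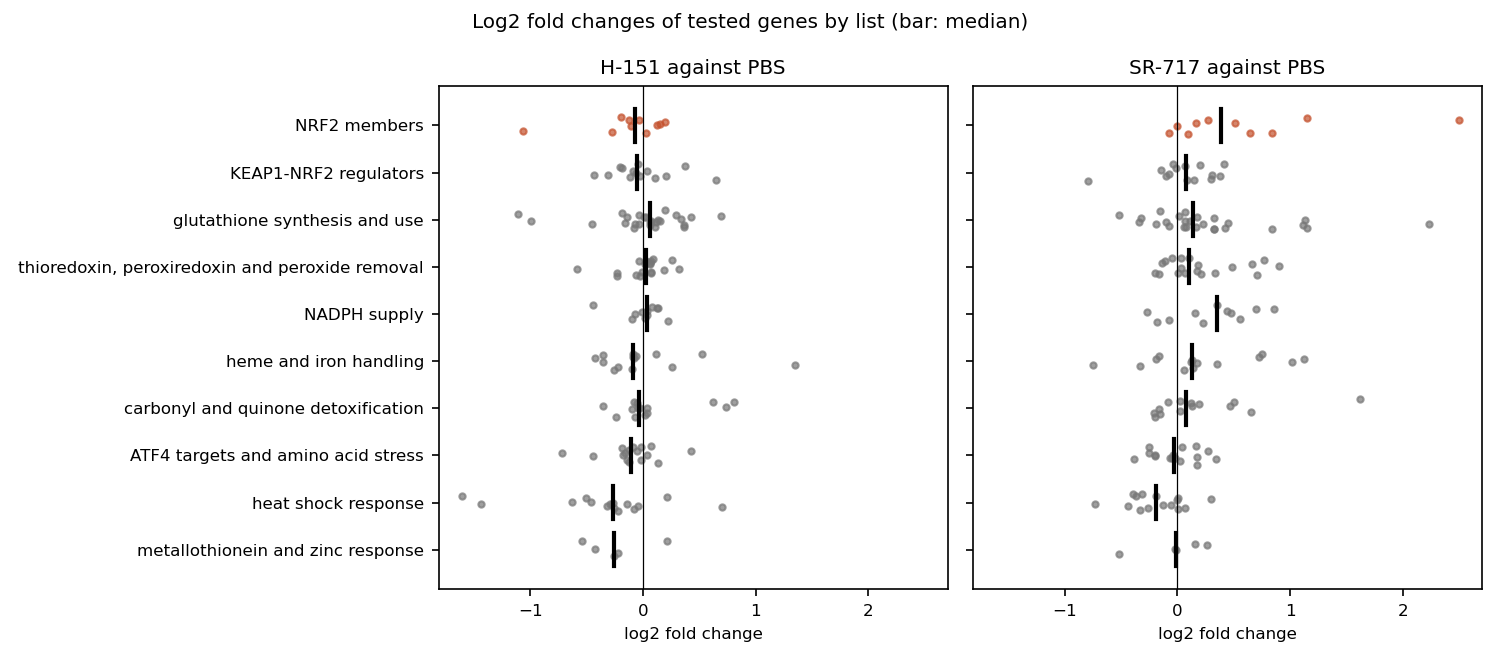
Log2 fold changes (x axis) of the genes tested in each list for H-151 against PBS (left) and SR-717 against PBS (right), with 1 point a gene and a bar at the list median. The 10 NRF2 genes in orange centre on -0.07 with H-151 and on 0.39 with SR-717, and in both panels Slc7a11 is the outermost of them.

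Across libraries the members did not follow 1 common pattern. Pearson correlations are given over log2 CPM of the 9 libraries as a description, since these share the 2 libraries that stood apart. Nfe2l2 correlated with Slc7a11 (r = 0.938), Txnrd1 (0.925), Osgin1 (0.877) and Hmox1 (0.855) over 9 libraries. Over the 7 libraries without SR-717 replicate 1 and PBS replicate 1 these values were 0.363, -0.351, 0.0147 and -0.277, so they rested on those 2 libraries. Other pairs were closer in the 7 libraries, such as Nqo1 with Hmox1 (0.438 over 9 and 0.888 over 7), Gclc with Osgin1 (0.407 and 0.872) and Gclc with Gclm (0.528 and 0.812). Gclm with Txnrd1 turned from 0.766 to -0.827. The pairs named here were picked once their values were known. H-151 replicate 3, the lowest of its group for 8 of the 10 genes, is among the 7 libraries. Its part in these values was not tested.

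Each gene was also matched to the 2 most similar of 11389 genes with a mean of at least 5 CPM. The matches were picked on the 9 libraries, which include the 7, so neither r is a test of likeness. Slc7a11 was closest to Acod1, the enzyme that makes itaconate (r = 0.996 over 9 libraries and 0.965 over 7), and to Hcar2 (0.995 and 0.989). Acod1 was at 34.5, 5.97 and 4.00 CPM in H-151, at 115, 4.69 and 3.37 CPM in PBS, and at 1104, 8.82 and 11.6 CPM in SR-717, so that its highest 3 libraries were those numbered 1, as for Slc7a11. Osgin1 was closest to Nrros (0.995 and 0.988) and Emilin2 (0.995 and 0.973), and Hmox1 to Cap1 (0.985 and 0.934) and Ptges (0.976 and 0.855). Nfe2l2 was closest to Ggta1 (0.992 and 0.896) and Topors (0.989 and 0.876). Gclc was closest to Arrb1 (0.966 and 0.984) and Incenp (0.96 and 0.97), Keap1 to Cct3 (0.972 and 0.962) and Ddr1 (0.964 and 0.955), and Nqo1 to Zdhhc3 (0.951 and 0.941) and Osbpl7 (0.933 and 0.943). Gclm was closest to Ttc7 (0.97 and 0.889) and Ighg2b (0.966 and 0.884), and Srxn1 to Medag (0.927 and 0.824) and Arpc4 (0.922 and 0.796). Txnrd1 was closest to Psme2 (0.984 and 0.585) and Sde2 (0.984 and 0.501).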

How the data were processed

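Callus RNA of 9 libraries (H-151, PBS and SR-717, 3 each) was measured by strand-specific poly(A) RNA sequencing. Expected counts, which are estimates per gene that need not be whole (8.91% were not), were deposited by the authors unnormalized. The authors also deposited TPM values, scaled for gene length, which were used for levels between genes and for 1 alternative. The build is mm10 per the submitters' processing notes, and the aligner, the counter, the annotation and whether counting used the strand are not given in the sources used here. No column of per-sample values was left unused.

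Expected counts were rounded, since the design had assumed counts. The main test was edgeR 4.0.16, run in R 4.3.3 (genes kept by filterByExpr with a count of 10 and a total of 15, TMM, quasi-likelihood test, Benjamini-Hochberg adjustment over all genes tested) on the 6 libraries compared. A gene was called at an unadjusted p under 0.05 with at least 1.5-fold, the thresholds the study names without saying whether p was adjusted, and separately at an adjusted p under 0.05. The F statistic of that test gave the standard errors and 95% intervals. The procedure was also run on simulated counts in which no library stood apart. That run does not show how it behaves with such a library. Library totals were 16987398 to 23272480, and the lowest member counts in any library were 31 for Slc7a11, 84 for Osgin1 and 90 for Nqo1.

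The 10 genes, the 9 related lists and the 10 marker lists were chosen with earlier results of these data known. Other genes named were, by rule, list members past the thresholds (at most 3 for each list and comparison), the gene of highest mean TPM in each list, and for each member the 2 genes with the highest Pearson r of log2 CPM (prior count 2). Outside these rules, Cd14, Matn1, Cnmd, Col2a1, Bach1 and Myh8 were named with their values known. Other genes picked once their values were known are named as such where they appear. The counts for SR-717 replicate 1 alone were likewise added after seeing the data. Positions are from the GENCODE annotation of GRCm38. Where Ddit3 had more than 1 row, the one with most counts was used.

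Replicate numbers come from the labels, which do not say what they stand for. Deviations from group means correlated between same-numbered libraries at 0.305, 0.485 and 0.503 for H-151 and PBS and at 0.65, 0.341 and 0.139 for SR-717 and PBS, so a fit with the replicate number as a block is given for these. Of 6 libraries, 6 correlated best with their own number for H-151 and PBS, and 3 for SR-717 and PBS. Alternatives were DESeq2 size factors, DESeq2 1.42.0, no filter, a minimum mean count of 50, a joint fit of all 9 libraries, the block, limma 3.58.1 on log2(TPM + 1) with a mean TPM of at least 1, and each library left out.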

Additional observations from a re-analysis of the deposited data

How the results depend on the processing

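Whether any of the 10 genes passed the unadjusted thresholds depended on few settings. For H-151 against PBS the count stayed at 0 in all 13 alternatives. For SR-717 against PBS it was 1 (Slc7a11) with the replicate number as a block and 1 with SR-717 replicate 1 and PBS replicate 1 both removed, an alternative chosen after seeing the data. For SR-717 against H-151 it ranged from 0 to 3 as single libraries were left out, with 3 without SR-717 replicate 3 and 1 without SR-717 replicate 2. Of 400 alternative values of the 10 genes, 6 passed the thresholds where the reported value did not, and 39 changed sign while passing in neither fit. No setting gave an adjusted p under 0.05 to any of the 10.

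Counts over all genes moved more, and the cause was not tested. In H-151 against PBS the 60 genes became 127 without a filter, 28 at a mean count of at least 50 and 262 with the replicate block, and ranged from 43 to 698 (without PBS replicate 2) as libraries were left out, with 99 without H-151 replicate 3, 115 without PBS replicate 1 and 153 without PBS replicate 3. In SR-717 against PBS the 73 genes became 138 with DESeq2, 194 without a filter, 37 at a mean count of at least 50, 176 with all 9 libraries, 443 with the replicate block and 118 with both libraries that stood apart removed, and ranged from 95 to 319 (without SR-717 replicate 3), with 118 without PBS replicate 1 and 259 without PBS replicate 2. In SR-717 against H-151 the 107 genes became 209 with DESeq2, 223 without a filter, 61 at a mean count of at least 50, 171 with all 9 libraries and 66 with limma on TPM, and ranged from 64 (without H-151 replicate 2) to 661 (without SR-717 replicate 3), with 384 without SR-717 replicate 2. DESeq2 gave 1 gene (Myh8) at an adjusted p under 0.05 there, in place of 0.

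Between SR-717 and H-151 the same-numbered libraries correlated at 0.342, 0.0621 and 0.0793, so their numbers were not taken as pairs, and 2 of 6 libraries correlated best with their own number. The replicate block gave 143 genes there and 0 of the 10. The block changed no other call of the 10 genes than that of Slc7a11 against PBS.

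With 3 libraries a group, 1 of them apart in SR-717, the intervals for Slc7a11, Osgin1, Nfe2l2 and Hmox1 against PBS run from under 0.6-fold to over 4-fold, so neither a rise nor its absence can be read for them. Cd163 had no value with a mean count of at least 50 or with limma on TPM.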
